A study of Mus musculus with 18 samples.

Results

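Type I interferon stimulated genes were examined in bulk RNA sequencing of 2 mouse brain regions, the prefrontal cortex (PFC) and the hippocampus. The set was a list of 36 genes that type I interferon switches on, and a gene was kept where it reached 0.5 FPKM (fragments scaled by gene length and library size) in 3 or more of the 18 libraries. Of the 36 genes, 34 have a row in the deposited table and 32 were kept, among 13574 genes of 18683 that pass the same rule. Oas2 and Oas3, which make the activator of RNase L, stayed under the floor, with highest values of 0.372 and 0.266 FPKM. Mx1 and Mx2 were not analysed here.

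The study asked what extracellular vesicles (EVs) from human breast milk do in a mouse model of Alzheimer's disease. All mice were male and of the C57BL/6J strain, and the 3 groups were 5xFAD mice given the EVs (5xFAD EV), 5xFAD mice given PBS (5xFAD PBS) and wildtype mice given PBS (WT). Injections into a vein were repeated every 3 days, 10 times, from 5 to 6 months of age, and brains were taken after behavioural tests and perfusion with PBS. Each of the 6 combinations of group and region has 3 libraries. 5xFAD mice carry human transgenes with mutations of familial Alzheimer's disease, expressed in neurons from a Thy1 promoter, and form amyloid plaques early. The 5xFAD EV and WT mice differ in both genotype and treatment, and no wildtype mice given EVs were analysed here. Nothing in the labels says that the 3 libraries of a group come from separate mice, so p-values measure the spread between these libraries, which may be technical.

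Type I interferons bind the receptor Ifnar1/Ifnar2 on nearly every cell, and the kinases Jak1 and Tyk2 then phosphorylate STAT proteins, among them Stat2. With Irf9 these form the complex ISGF3, which binds the interferon stimulated response element (ISRE) in front of its target genes. Their products sense foreign nucleic acid, block virus entry, translation and budding, and either amplify or damp the signal. In the brain, microglia near amyloid plaques, among other cells, are known to carry such a programme. In bulk tissue, fewer cells of a type and less RNA per cell cannot be told apart.

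The ISRE is visible in the promoters of several of the genes below, and these stretches are shown because they carry the element that names the set. The window searched ran from 250 bases before to 50 after each annotated start (RefSeq, build GRCm38.p6), and 26 of the 36 genes have one. Some genes have more than 1 annotated start, which gives 30 windows. In 21 of the 30, the bases after the start were found in a GENCODE M21 transcript of the gene. The other starts were not borne out by that check. The ISRE core, GAAANNGAAA on either strand, was present in 12 of these 26 genes (46.2%), against 3.99% of all 27025 genes in the promoter table. The gamma activated sequence (GAS) core, TTCNNNGAA, which reads the same on both strands, was present in 6 of 26 (23.1%), against 9.55% of all genes. Each sequence runs 5′ to 3′ along the gene strand, ends before the annotated start, and has ISRE cores in capitals (reading as TTTCNNTTTC where the core lies on the other strand).
Isg15: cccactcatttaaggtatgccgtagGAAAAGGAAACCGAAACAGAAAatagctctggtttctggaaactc
Ifit1: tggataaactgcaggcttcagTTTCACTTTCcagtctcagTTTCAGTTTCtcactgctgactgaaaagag
Ifit3: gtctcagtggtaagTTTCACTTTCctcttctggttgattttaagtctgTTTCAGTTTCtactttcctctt
Oas1a: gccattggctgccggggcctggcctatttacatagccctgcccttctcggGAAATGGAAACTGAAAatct
Bst2: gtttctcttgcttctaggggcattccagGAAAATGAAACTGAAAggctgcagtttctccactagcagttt
Trim30a: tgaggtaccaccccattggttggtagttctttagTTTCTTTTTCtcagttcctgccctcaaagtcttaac
Rsad2: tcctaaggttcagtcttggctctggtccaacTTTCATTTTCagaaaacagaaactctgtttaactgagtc
In GRCm38.p6 these lie at chr4:156200852-156200921 for Isg15 (minus strand), chr19:34640764-34640833 for Ifit1 (plus), chr19:34583359-34583428 for Ifit3 (plus), chr5:120907526-120907595 for Oas1a (minus), chr8:71537561-71537630 for Bst2 (minus), chr7:104465194-104465263 for 1 of the annotated starts of Trim30a (minus) and chr12:26456534-26456603 for Rsad2 (minus). In Isg15, Oas1a and Bst2 the cores overlap as a run of GAAA boxes, 3 cores in Isg15 and 2 in each of the others. In Ifit1 and Ifit3 both cores lie on the other strand and stand apart. Rsad2 is shown beside them because it carries a core and still did not pass the genotype test in either region. In Bst2 a GAS core overlaps the first ISRE core. A match describes these letters only, and binding was not measured.

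**Figure D1:**
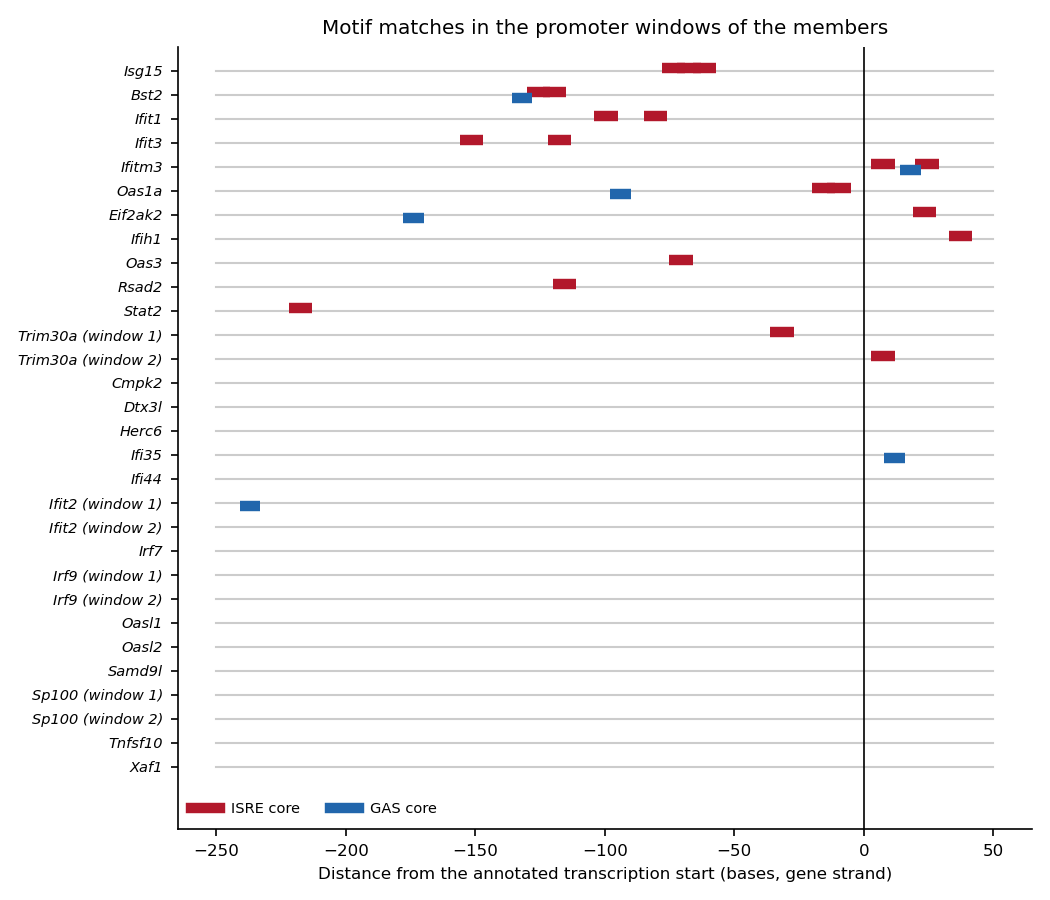
Positions of the ISRE core (red) and GAS core (blue) in the promoter windows of the interferon-stimulated genes; the x axis is the distance from the annotated start in bases, and each grey line is 1 window. Of 26 genes with a window, 12 hold an ISRE core and 6 a GAS core.

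Reads in listed genes ranged from 26437852 to 36901744 per library. At the median gene length, a single read corresponds to between 0.00843 and 0.0118 FPKM. Thy1, whose promoter drives the transgenes, had 1330.2, 1293 and 1075 FPKM in 5xFAD PBS hippocampi and 432, 459 and 506 in WT hippocampi, an increase that matches the labels. Mean Thy1 in PFC was 946 FPKM in 5xFAD EV, 1098 in 5xFAD PBS and 469 in WT, while mouse App did not pass in any comparison. By limma at an adjusted p under 0.05, 4.19% of all genes rose in 5xFAD PBS against WT in the hippocampus and 1.82% in PFC. Of 14 microglial markers, 13 rose in each region. Their summed level was 1277, 1249.6 and 2279 FPKM in 5xFAD EV hippocampi, 1781, 1644 and 1676 in 5xFAD PBS hippocampi and 422, 492 and 475 in WT hippocampi. Choroid plexus, which makes cerebrospinal fluid and borders the hippocampus, was present unevenly: its 13 markers summed to 5782, 2302 and 192 FPKM in 5xFAD EV hippocampi, 2657, 9016 and 2818 in 5xFAD PBS hippocampi and 37.6, 87 and 172 in WT hippocampi. In PFC the same sum was 14.3, 7.1 and 874 FPKM in 5xFAD EV, 9.1, 5.68 and 7.76 in 5xFAD PBS and 9.62, 10.1 and 4.99 in WT. Of 9 lymphocyte markers in the table, 1 passed the 0.5 FPKM rule.

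The comparison of 5xFAD PBS with WT sets the 2 genotypes side by side without EVs. In the hippocampus 20 of 32 interferon-stimulated genes rose and none fell. Over all 13305 genes tested, 4.19% rose, 0.406% fell and so 4.59% changed. Their median log2 fold change was 1.18, against 0.02 over all genes, and all 32 values were above 0, where 45.6% of all genes were below. In 28 of the 32 genes every 5xFAD PBS library lay above every WT library, which held for 16.5% of all genes. In PFC 8 of 31 genes tested rose and none fell. Over all 13055 genes tested, 1.82% rose, 0.138% fell and so 1.96% changed. The median there was 0.70, against 0.02 over all genes, and 30 of 31 values were above 0, where 43% of all genes were below. In 25 of the 31 genes the 5xFAD PBS values lay above WT without overlap, against 9.75% of all genes. Fold changes are differences of log2(FPKM + 0.5), which understates changes of low genes, with standard errors (SE), and adjusted p-values are from limma over all genes tested in the region.

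The 2 regions shared 5 of these genes, which is 5 of the 8 called in PFC and 5 of the 20 called in the hippocampus: Ifih1, Parp9, Parp14, Sp100 and Trim30a. Ifit2, Oas1a and Zbp1 passed in PFC alone and 15 genes in the hippocampus alone, and 9 passed in neither. That gap between regions did not itself pass a test. For the difference of the genotype effect, hippocampus minus PFC, limma called 0 of 13574 genes and so 0 of the 32 (0%). At an unadjusted p under 0.05 there were 787 genes, 6 of them interferon-stimulated, and voom on recovered reads also called 0. The median difference over the 32 genes was 0.49, against 0.01 over all genes, with 31 of 32 values above 0. Bst2 had the largest, 1.56 (SE 0.35, adjusted p = 0.53), followed by Ifi27 with 1.22 (SE 0.31).

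**Figure D2:**
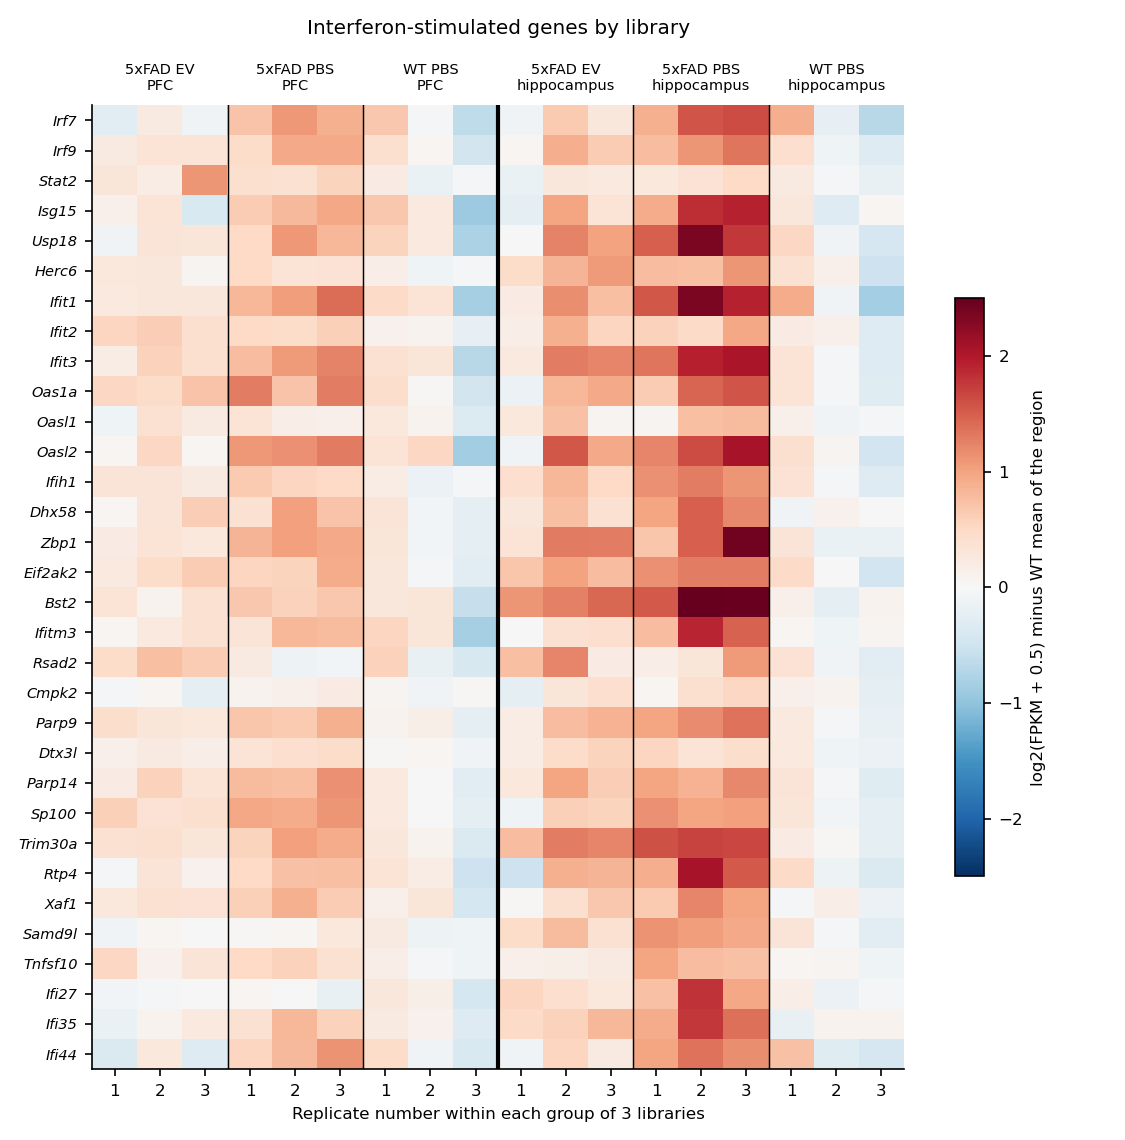
Level of the 32 interferon-stimulated genes (rows, by role) in each of the 18 libraries (columns), as log2(FPKM + 0.5) minus the WT mean of the same region. Red is higher and blue lower than the WT mean: 5xFAD PBS hippocampi are red in nearly every row, 5xFAD EV columns are paler, and WT replicate 1 is redder than WT replicate 3 in both regions.

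Among the transcription factors, Irf9, the DNA-binding subunit of ISGF3, rose in the hippocampus. It had 4.07, 7.73 and 6.3 FPKM in 5xFAD EV hippocampi, 7.03, 9.02 and 10.6 in 5xFAD PBS hippocampi and 5.38, 3.61 and 3.05 in WT hippocampi. All 5xFAD PBS values exceeded all WT values, and 5xFAD EV replicate 1 lay within the WT range (log2 fold change 1.07, SE 0.25, adjusted p = 0.0413 for 5xFAD PBS against WT). In PFC, Irf9 had 3.69, 4.03 and 4.02 FPKM in 5xFAD EV PFC samples, 4.44, 6.41 and 6.47 in 5xFAD PBS PFC samples and 4.25, 3.23 and 2.12 in WT PFC samples, without overlap between 5xFAD PBS and WT but short of the threshold (log2 fold change 0.79, SE 0.21, adjusted p = 0.118). Irf7, the factor that amplifies interferon production, had a mean of 8.95 ± 2.44 FPKM in 5xFAD PBS hippocampi and 3.52 ± 2.4 in WT hippocampi (SD, n = 3 each). It did not pass (log2 fold change 1.36, SE 0.38, adjusted p = 0.0818), and WT replicate 1, at 6.23 FPKM, overlapped the 5xFAD PBS range. Stat2, a subunit of ISGF3, had smaller differences of 0.38 in the hippocampus and 0.44 in PFC and passed in neither.

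Isg15 encodes a ubiquitin-like protein that is joined to other proteins, Usp18 the protease that removes it and also damps the receptor, and Herc6 the mouse ligase that attaches it. Isg15 had 4.0, 10.0 and 6.25 FPKM in 5xFAD EV hippocampi, 9.52, 18.5 and 19.6 in 5xFAD PBS hippocampi and 5.96, 3.72 and 4.95 in WT hippocampi. It rose in 5xFAD PBS (log2 fold change 1.56, SE 0.34, adjusted p = 0.0292), and 5xFAD EV replicate 1 lay inside the WT range while replicate 2 exceeded the lowest 5xFAD PBS value. In PFC Isg15 had 5.28, 6.28 and 3.6 FPKM in 5xFAD EV PFC samples, 7.73, 8.87 and 9.87 in 5xFAD PBS PFC samples and 7.97, 5.78 and 2.33 in WT PFC samples, where WT replicate 1 reached the 5xFAD PBS range. Usp18 in the hippocampus had 1.16, 3.41 and 2.84 FPKM in 5xFAD EV hippocampi, 4.15, 7.92 and 5.12 in 5xFAD PBS hippocampi and 1.85, 1.05 and 0.737 in WT hippocampi. Every 5xFAD PBS value of Usp18 exceeded every value of both other groups (log2 fold change 1.87, SE 0.35, adjusted p = 0.0157 against WT). Herc6 did not pass (0.88 in the hippocampus, 0.40 in PFC).

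The IFIT proteins bind viral RNA and block its translation. Ifit3, the most abundant of them here, had 7.63, 16 and 15.4 FPKM in 5xFAD EV hippocampi, 16.8, 25.7 and 27.5 in 5xFAD PBS hippocampi and 8.13, 6.23 and 4.98 in WT hippocampi. It rose in the hippocampus (log2 fold change 1.77, SE 0.29, adjusted p = 0.00771), where all 5xFAD PBS values stood above the rest. In PFC it had 8.08, 10.8 and 9.48 FPKM in 5xFAD EV PFC samples, 12.5, 15.4 and 17.3 in 5xFAD PBS PFC samples and 9.36, 8.93 and 4.21 in WT PFC samples, without overlap between 5xFAD PBS and WT but short of the threshold (log2 fold change 1.03, SE 0.25, adjusted p = 0.0908). Ifit3 shares 51.2% of its 50-base stretches with its copy Ifit3b, so the split of reads between them is uncertain. Ifit3b itself passed in PFC (0.93). Ifit1, which recognises RNA caps that lack methylation, had 2.05, 4.44 and 3.2 FPKM in 5xFAD EV hippocampi, 6.0, 10.8 and 7.84 in 5xFAD PBS hippocampi and 3.7, 1.57 and 0.731 in WT hippocampi. Its 5xFAD PBS values lay above both other groups (log2 fold change 1.94, SE 0.41, adjusted p = 0.0271), with WT spread from 0.731 to 3.7. Ifit2 passed in PFC alone, with 5.12, 5.45 and 4.62 FPKM in 5xFAD EV PFC samples, 5.01, 4.85 and 5.36 in 5xFAD PBS PFC samples and 3.7, 3.62 and 2.89 in WT PFC samples. In this gene the 5xFAD EV and 5xFAD PBS libraries overlapped and both lay above WT (log2 fold change 0.52, SE 0.11, adjusted p = 0.0444, and 0.066, short of the threshold, when replicate number entered as a block).

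The OAS enzymes respond to double-stranded RNA and activate RNase L. Oas1a passed in PFC, where it had 1.14, 1.09 and 1.38 FPKM in 5xFAD EV PFC samples, 2.32, 1.39 and 2.29 in 5xFAD PBS PFC samples and 1.07, 0.672 and 0.339 in WT PFC samples. All 5xFAD PBS values lay above WT (log2 fold change 1.09, SE 0.23, adjusted p = 0.0402, and 0.061, short of the threshold, with that block). Oas1a shares 57.6% of its 50-base stretches with Oas1g, so its reads are uncertain between the copies. Oasl2, an OAS-like protein, was the most abundant of the family and had 2.79, 9.78 and 6.25 FPKM in 5xFAD EV hippocampi, 7.64, 10.4 and 14.1 in 5xFAD PBS hippocampi and 4.16, 3.18 and 2.02 in WT hippocampi. Its 5xFAD PBS values exceeded WT (log2 fold change 1.64, SE 0.39, adjusted p = 0.0464), and 5xFAD EV replicate 2, at 9.78 FPKM, lay within the 5xFAD PBS range. In PFC Oasl2 had 2.75, 3.98 and 2.77 FPKM in 5xFAD EV PFC samples, 6.15, 6.49 and 7.22 in 5xFAD PBS PFC samples and 3.49, 4.01 and 1.23 in WT PFC samples, with the WT values spread widely (log2 fold change 1.18, SE 0.30, adjusted p = 0.112). Oasl1 was tested in the hippocampus alone and did not pass (0.54).

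All 4 nucleic acid sensors were higher in 5xFAD PBS than in WT without overlap in both regions. Ifih1 (MDA5), which senses long double-stranded RNA, passed in both. It had 1.28, 1.84 and 1.37 FPKM in 5xFAD EV hippocampi, 2.43, 2.71 and 2.34 in 5xFAD PBS hippocampi and 1.19, 0.796 and 0.549 in WT hippocampi (log2 fold change 1.18, SE 0.18, adjusted p = 0.00557). In PFC it had 1.58, 1.56 and 1.43 FPKM in 5xFAD EV PFC samples, 2.11, 1.89 and 1.84 in 5xFAD PBS PFC samples and 1.39, 1.0 and 1.1 in WT PFC samples, a change of 0.56 (SE 0.12, adjusted p = 0.0403, and 0.0474 with the block). The 3 groups formed separate bands for Ifih1 in both regions, 5xFAD EV lying between 5xFAD PBS and WT. Dhx58 (LGP2), a helicase that tunes that sensor, had 0.707, 1.17 and 0.80 FPKM in 5xFAD EV hippocampi, 1.49, 2.32 and 1.8 in 5xFAD PBS hippocampi and 0.432, 0.566 and 0.494 in WT hippocampi (log2 fold change 1.23, SE 0.17, adjusted p = 0.00313). Eif2ak2 (PKR), the kinase that halts translation on double-stranded RNA and the most abundant of the 4, had 2.45, 3.18 and 2.62 FPKM in 5xFAD EV hippocampi, 3.57, 3.93 and 3.95 in 5xFAD PBS hippocampi and 2.04, 1.33 and 0.824 in WT hippocampi (log2 fold change 1.23, SE 0.21, adjusted p = 0.00859). For both genes the hippocampal groups were again separate bands in the same order. In PFC Eif2ak2 had 1.81, 2.18 and 2.55 FPKM in 5xFAD EV PFC samples, 2.35, 2.36 and 3.24 in 5xFAD PBS PFC samples and 1.89, 1.43 and 1.13 in WT PFC samples and did not pass (adjusted p = 0.111). Zbp1, which senses Z-form nucleic acid and can trigger necroptosis, passed in PFC, with 0.469, 0.563 and 0.503 FPKM in 5xFAD EV PFC samples, 1.01, 1.19 and 1.12 in 5xFAD PBS PFC samples and 0.526, 0.295 and 0.216 in WT PFC samples. The 5xFAD PBS values stood above every other PFC value (log2 fold change 0.94, SE 0.14, adjusted p = 0.00749, and 0.024 with the block). Its hippocampal difference was larger, 1.53, but the 5xFAD PBS libraries ran from 0.801 to 3.78 FPKM and it did not pass (adjusted p = 0.0696).

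Of the membrane effectors, Bst2 (tetherin), which holds budding viruses to the cell surface, had the largest rise of the whole set in the hippocampus. It had 16.2, 18.2 and 20.8 FPKM in 5xFAD EV hippocampi, 22.1, 47.6 and 42.6 in 5xFAD PBS hippocampi and 8.08, 6.21 and 7.8 in WT hippocampi (log2 fold change 2.21, SE 0.25, adjusted p = 0.00115). The 3 groups did not overlap. In PFC its mean was 12 ± 0.451 FPKM in 5xFAD PBS and 7.79 ± 2.53 in WT (SD, n = 3 each), a difference of 0.64 that did not pass. Ifitm3, which blocks virus entry at endosomal membranes, had 32.1, 41.9 and 42.8 FPKM in 5xFAD EV hippocampi, 55.1, 120.0 and 90.1 in 5xFAD PBS hippocampi and 32.9, 29.4 and 33.6 in WT hippocampi (log2 fold change 1.39, SE 0.24, adjusted p = 0.00935). For Ifitm3 the 5xFAD PBS values stood apart, and 5xFAD EV replicate 1 lay within WT. In PFC Ifitm3 had 25.7, 29.6 and 32.6 FPKM in 5xFAD EV PFC samples, 31.4, 44.8 and 43.2 in 5xFAD PBS PFC samples and 36.2, 30.7 and 13.8 in WT PFC samples, where the groups overlapped. Both Bst2 and Ifitm3 had their highest 5xFAD PBS hippocampal value in replicate 2, which also had the highest choroid plexus sum, and their lowest in replicate 1; the part of choroid plexus in these results was not tested. Rsad2 (viperin), which makes a chain-terminating nucleotide, and its neighbour Cmpk2, a mitochondrial nucleotide kinase, differed by 0.51 and 0.32 in the hippocampus and by 0.01 and 0.14 in PFC, and neither passed.

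Parp9 and Dtx3l form a complex that modifies histones and viral proteins, and Parp14 is a further ADP-ribosyltransferase. Parp9 passed in both regions. It had 1.59, 2.66 and 2.88 FPKM in 5xFAD EV hippocampi, 3.17, 3.71 and 4.21 in 5xFAD PBS hippocampi and 1.68, 1.28 and 1.13 in WT hippocampi (log2 fold change 1.18, SE 0.20, adjusted p = 0.00808). In PFC it had 1.79, 1.57 and 1.51 FPKM in 5xFAD EV PFC samples, 2.22, 2.14 and 2.61 in 5xFAD PBS PFC samples and 1.29, 1.35 and 0.942 in WT PFC samples (log2 fold change 0.74, SE 0.13, adjusted p = 0.0163, and 0.0399 with the block). In PFC the 5xFAD EV values of Parp9 lay between those of 5xFAD PBS and WT without overlap. Dtx3l, whose exons overlap those of Parp9 on the opposite strand (9.4% of the exon bases of Parp9), differed by 0.44 in the hippocampus and 0.41 in PFC and passed in neither. Parp14 had 0.783, 1.62 and 1.14 FPKM in 5xFAD EV hippocampi, 1.61, 1.45 and 1.95 in 5xFAD PBS hippocampi and 0.828, 0.547 and 0.369 in WT hippocampi (log2 fold change 1.02, SE 0.21, adjusted p = 0.0252). In PFC it had 0.709, 1.06 and 0.828 FPKM in 5xFAD EV PFC samples, 1.3, 1.26 and 1.8 in 5xFAD PBS PFC samples and 0.744, 0.558 and 0.371 in WT PFC samples (log2 fold change 0.89, SE 0.17, adjusted p = 0.0238, and 0.0688, short of the threshold, with the block). The 5xFAD PBS and WT values of Parp14 were separate in both regions. Sp100, a component of nuclear bodies that repress viral DNA, had 0.779, 1.6 and 1.53 FPKM in 5xFAD EV hippocampi, 2.54, 2.22 and 2.31 in 5xFAD PBS hippocampi and 1.21, 0.812 and 0.683 in WT hippocampi (log2 fold change 1.04, SE 0.21, adjusted p = 0.0194). In PFC Sp100 had 1.41, 1.14 and 1.18 FPKM in 5xFAD EV PFC samples, 1.98, 1.92 and 2.22 in 5xFAD PBS PFC samples and 1.01, 0.768 and 0.577 in WT PFC samples (log2 fold change 0.995, SE 0.14, adjusted p = 0.00399, and 0.00984 with the block), the lowest adjusted p of the set in that region. There the 3 groups were separate, with 5xFAD EV in the middle.

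Among the remaining effectors, Trim30a, a mouse TRIM protein that damps inflammatory signalling, had the lowest adjusted p in the hippocampus. It had 1.63, 2.53 and 2.41 FPKM in 5xFAD EV hippocampi, 3.25, 3.55 and 3.47 in 5xFAD PBS hippocampi and 0.937, 0.782 and 0.562 in WT hippocampi (log2 fold change 1.65, SE 0.16, adjusted p = 0.000747). In PFC it had 1.27, 1.31 and 1.18 FPKM in 5xFAD EV PFC samples, 1.5, 2.28 and 2.11 in 5xFAD PBS PFC samples and 1.16, 0.952 and 0.558 in WT PFC samples (log2 fold change 0.84, SE 0.18, adjusted p = 0.0445, and 0.0805, short of the threshold, with the block). The 3 groups were separate for Trim30a in both regions. Tnfsf10 (TRAIL), a ligand that triggers cell death, had 0.60, 0.614 and 0.673 FPKM in 5xFAD EV hippocampi, 1.47, 1.22 and 1.17 in 5xFAD PBS hippocampi and 0.533, 0.552 and 0.425 in WT hippocampi (log2 fold change 0.83, SE 0.12, adjusted p = 0.00442). Samd9l, a restrictor of cell growth and of poxviruses, had 1.2, 1.63 and 1.11 FPKM in 5xFAD EV hippocampi, 2.19, 2.02 and 1.88 in 5xFAD PBS hippocampi and 1.04, 0.703 and 0.508 in WT hippocampi (log2 fold change 1.04, SE 0.17, adjusted p = 0.00823). In PFC Samd9l differed by 0.11 and did not pass. Xaf1, a promoter of cell death, had 1.92, 2.64 and 3.31 FPKM in 5xFAD EV hippocampi, 3.25, 5.03 and 4.2 in 5xFAD PBS hippocampi and 1.85, 2.17 and 1.66 in WT hippocampi (log2 fold change 0.95, SE 0.19, adjusted p = 0.0215). Its 5xFAD EV replicate 3 exceeded the lowest 5xFAD PBS value.

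Ifi27, a small mitochondrial protein, had 51.6, 47.5 and 42.5 FPKM in 5xFAD EV hippocampi, 59.3, 126 and 69.5 in 5xFAD PBS hippocampi and 39.9, 32 and 34.9 in WT hippocampi (log2 fold change 1.17, SE 0.23, adjusted p = 0.0202). The 3 groups were separate in the hippocampus, although 5xFAD PBS replicate 2 stood well above the rest. In PFC it had 29.6, 30.1 and 31.2 FPKM in 5xFAD EV PFC samples, 32.3, 30.9 and 27.5 in 5xFAD PBS PFC samples and 38.3, 34.7 and 22.8 in WT PFC samples, with no separation of groups (log2 fold change -0.05, SE 0.16, adjusted p = 0.998). Ifi35 had 2.87, 3.15 and 3.81 FPKM in 5xFAD EV hippocampi, 4.15, 7.75 and 5.81 in 5xFAD PBS hippocampi and 1.65, 2.09 and 2.09 in WT hippocampi (log2 fold change 1.36, SE 0.20, adjusted p = 0.00417), and an annotated antisense gene covers 16.8% of its exon bases, so its reads are uncertain between them. Rtp4 and Ifi44 differed by 1.51 and 1.18 in the hippocampus without overlap, and neither passed (adjusted p = 0.075 and 0.0533). An annotated gene on the same strand, Gm45338, covers 13.9% of the exon bases of Rtp4, so the reads of Rtp4 are also uncertain.

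**Figure D3:**
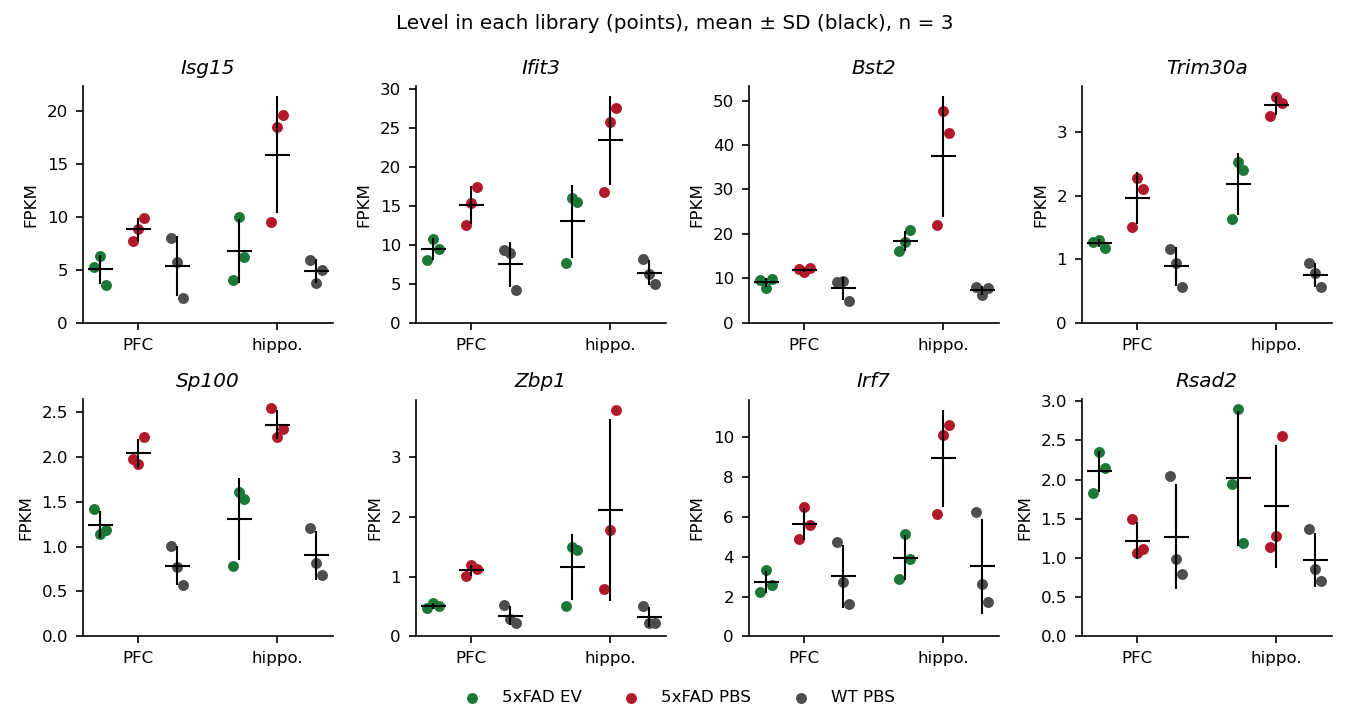
FPKM of 8 interferon-stimulated genes in each library (points, y axis) by region and group, with the mean and SD of 3 libraries in black. Bst2, Trim30a and Sp100 have their 5xFAD PBS hippocampi above all other hippocampi, while for Irf7 and Rsad2 the hippocampal 5xFAD PBS and WT points overlap; Irf7 and Rsad2 were added after their values were seen.

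The calls rested on single libraries to different degrees. In the hippocampus 11 of the 20 genes passed in each of the 9 fits that left out 1 library: Ifit3, Ifih1, Dhx58, Eif2ak2, Bst2, Ifitm3, Parp9, Samd9l, Trim30a, Tnfsf10 and Ifi35. The count of genes called there was 12 without 5xFAD PBS replicate 2, 13 without 5xFAD PBS replicate 3 and 11 without WT replicate 2 or WT replicate 3. In PFC Sp100 and Zbp1 passed in each of the 9 fits, and the count was 2 without 5xFAD PBS replicate 3 or WT replicate 3, 3 without 5xFAD PBS replicate 1, and 4 without 5xFAD PBS replicate 2, WT replicate 2, 5xFAD EV replicate 1 or 5xFAD EV replicate 2. Entering replicate number as a block left 4 of the 8 in PFC (Ifih1, Zbp1, Parp9 and Sp100).

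The WT libraries themselves differed along the set. WT replicate 1 had the highest WT value for 27 of the 32 genes in PFC and for 27 in the hippocampus, where over all genes kept it was highest for 21.4% and 35.3%. WT replicate 3 had the lowest WT value for 27 genes in PFC and 24 in the hippocampus, where over all genes kept it was lowest for 30.5% and 38.0%. The median over the set, as log2(FPKM + 0.5) minus the WT mean of the region, was 0.52, 0.75 and 0.76 in the 5xFAD PBS PFC samples and 0.28, 0.05 and -0.35 in the WT PFC samples. Microglial markers, measured the same way, were at 1.13, 1.07 and 1.08 in 5xFAD PBS and -0.13, 0.23 and -0.08 in WT, and did not follow the order of the WT replicates. In PFC, where the choroid plexus sums of 5xFAD PBS and WT overlapped, the set had a median of 0.70. In the hippocampus, where the median of the set was 1.18, 10 of 13 choroid plexus markers were called higher in 5xFAD PBS than WT. By voom on recovered reads 1 of the 13 passed. Among markers of meningeal fibroblasts 1 of 8 was called higher (all 8 above 0, median 0.74). For border macrophages 0 of 4 markers passed (all 4 above 0, median 0.81). Of 3 neutrophil and monocyte markers tested in the hippocampus, 2 rose (4.19% of all genes), with all 3 above 0 and a median of 1.22. In PFC 0 of 2 passed (median 0.90). The part of these markers in the result was not tested, nor was that of the microglial markers in either region.

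**Figure D4:**
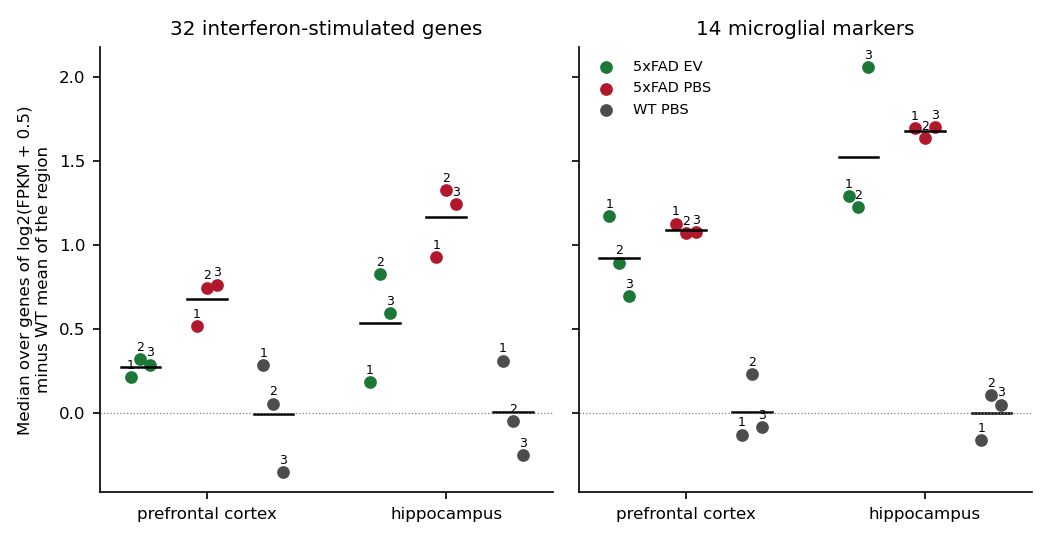
Median of log2(FPKM + 0.5) minus the WT mean of the region over the 32 interferon-stimulated genes (left) and over 14 microglial markers (right), 1 point per library with its replicate number and a line at the group mean. On the left, 5xFAD EV libraries lie below 5xFAD PBS libraries in both regions; on the right they overlap.

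EVs were then compared with PBS within 5xFAD mice. No gene passed in either region: limma called 0 of 13055 genes in PFC and 0 of 13305 in the hippocampus (0% of genes and 0 of the interferon-stimulated genes in each), as did voom on recovered reads. At an unadjusted p under 0.05 there were 616 genes in PFC and 519 in the hippocampus, 19 interferon-stimulated genes in each. The fold changes of the set were nonetheless mostly below 0. In the hippocampus 31 of 32 were below 0, against 55.9% of all genes, with a median of -0.63 against -0.02 over all genes. In PFC 28 of 31 were below 0, against 44.1% of all genes, with a median of -0.42 against 0.02. Every 5xFAD EV library lay below every 5xFAD PBS library for 18 of 32 genes in the hippocampus (5.21% of all genes) and for 22 of 31 in PFC (3.94%). This comparison and the genotype comparison share the 5xFAD PBS libraries, so their values for a gene are not independent.

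Over the whole set, the lowest EV values in the hippocampus were those of Ifit1 (-1.24, SE 0.41), Isg15 (-1.19, SE 0.34), Ifitm3 (-1.11, SE 0.24) and Usp18 (-1.11, SE 0.35), each with an adjusted p of 0.867. In PFC they were those of Oasl2 (-0.97, SE 0.30), Ifi44 (-0.96, SE 0.25) and Irf7 (-0.95, SE 0.27), with an adjusted p of 0.822. These genes lead by size and were picked after their values were seen. The library medians of the set were 0.18, 0.82 and 0.59 in 5xFAD EV hippocampi and 0.93, 1.32 and 1.24 in 5xFAD PBS hippocampi, a gap without overlap. In PFC they were 0.21, 0.32 and 0.29 in 5xFAD EV and 0.52, 0.75 and 0.76 in 5xFAD PBS. 5xFAD EV replicate 1 had the lowest 5xFAD EV hippocampal value for 28 of the 32 genes (27.2% of all genes kept). Among 5xFAD PBS hippocampi, replicate 1 was lowest for 24 of the 32 (32.5%). The genes thus moved together between libraries of a group, and counts over the set are not independent. The median fold change over fits without 1 library stayed between -0.73 and -0.43 in the hippocampus and between -0.54 and -0.39 in PFC.

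Rsad2 alone had values above 0 in both regions. It had 1.83, 2.35 and 2.15 FPKM in 5xFAD EV PFC samples, 1.49, 1.06 and 1.12 in 5xFAD PBS PFC samples and 2.04, 0.987 and 0.792 in WT PFC samples. The 5xFAD EV values of Rsad2 were above all 5xFAD PBS values in PFC (log2 fold change 0.60, SE 0.23, adjusted p = 0.822), an order seen in 6.68% of all genes, and WT replicate 1 lay inside the 5xFAD EV range. In the hippocampus the groups overlapped (0.22, SE 0.30), and the value was -0.03 without 5xFAD EV replicate 2. Stat2 and Ifi27 were also above 0 in PFC, at 0.09 and 0.01, and Ifi27 was at -0.01 with median-ratio scaling. The Stat2 value rests on 5xFAD EV replicate 3, at 9.05 FPKM against 5.0 and 4.59 in the other two, and was -0.20 without it. That library is also the PFC library with 874 FPKM of choroid plexus markers. Its summed prefrontal cortex markers were the lowest of the PFC libraries, at 89.3 FPKM, where the others ran from 134.9 to 161.6. The part of either in the Stat2 value, or in other EV values in PFC, was not tested. These 3 genes were picked after their values were seen.

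Of the 14 microglial markers 0 passed between 5xFAD EV and 5xFAD PBS in either region (limma), with median log2 fold changes of -0.10 in the hippocampus and -0.22 in PFC. In PFC all 14 were below 0 (44.1% of all genes), 3 of them without overlap (3.94% of all genes). In the hippocampus 11 of the 14 microglial markers were below 0 (55.9% of all genes), with overlap for each. Their summed level in PFC was 1141, 916 and 832 FPKM in 5xFAD EV and 1139, 1146 and 1117 in 5xFAD PBS, which overlap. Markers of cells at the brain's borders were lower in the hippocampus, without passing. The 4 border macrophage markers were all below 0 (median -0.88) and without overlap, and the whole list summed to 2.53, 2.84 and 4.55 FPKM in 5xFAD EV and 6.9, 10.9 and 6.83 in 5xFAD PBS hippocampi. All 8 meningeal fibroblast markers were below 0 (median -0.85), 5 of them without overlap, and so were all 13 choroid plexus markers (median -1.14), with overlap for each. In PFC the medians were -0.09 over 4 border macrophage markers, 0.40 over 7 meningeal and 0.78 over 4 choroid plexus markers. The 3 neutrophil and monocyte markers tested in the hippocampus were all below 0 (median -0.70), 1 of them without overlap. In PFC the 2 tested were above 0 (median 0.53). The part of these markers in the values of the set was not tested. For the difference of the EV effect between regions, hippocampus minus PFC, limma called 0 of 13574 genes (0%) and 0 of the 32. At an unadjusted p under 0.05 there were 680 genes, 2 of them interferon-stimulated (Tnfsf10 and Ifi27), and voom called 0. The median difference over the set was -0.19, against -0.05 over all genes.

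**Figure D5:**
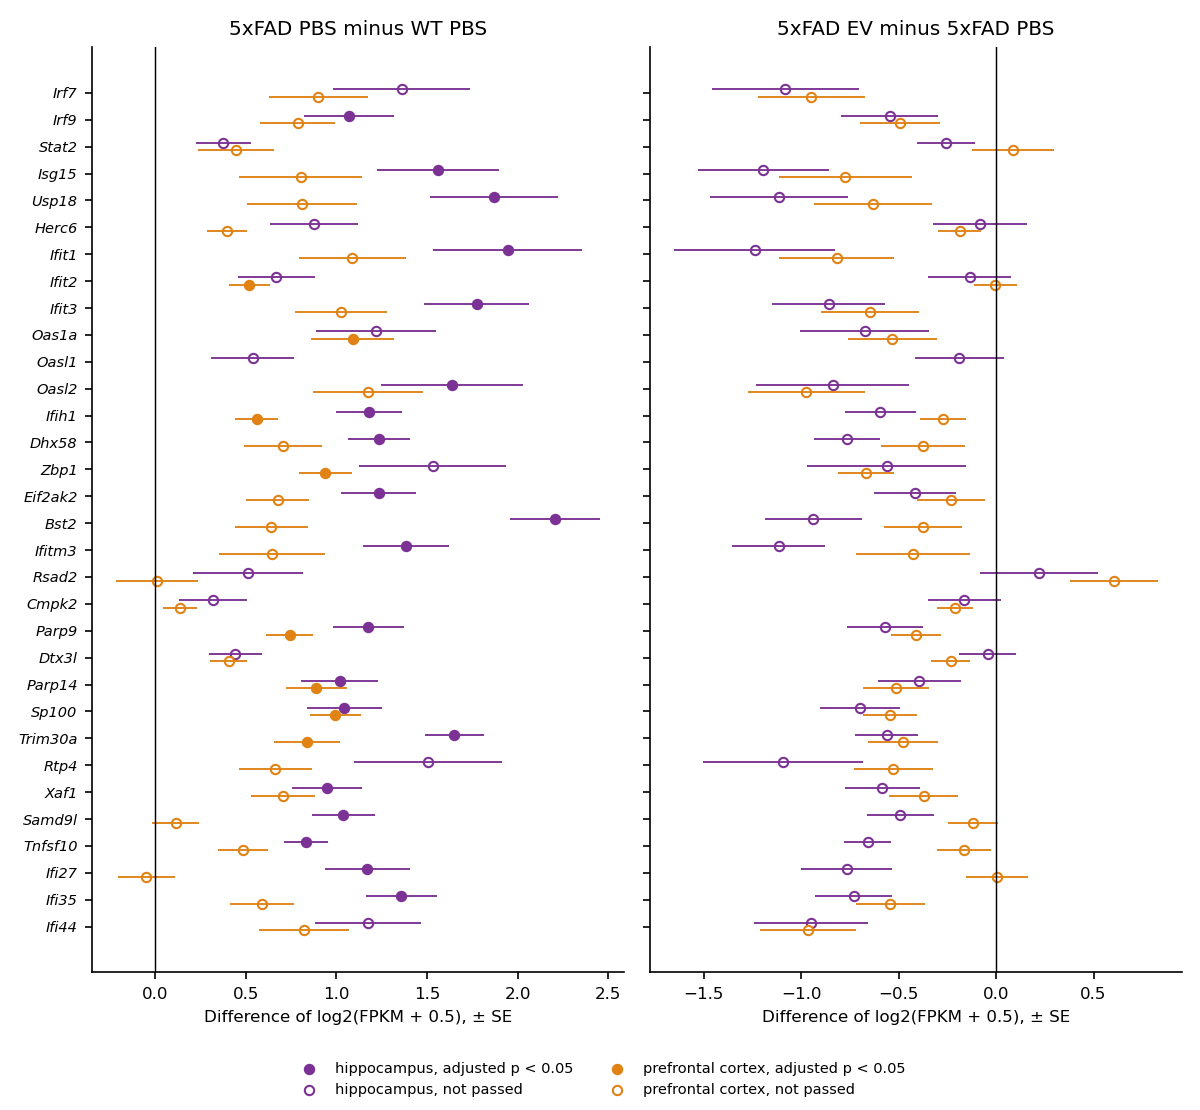
Difference of log2(FPKM + 0.5) with its SE (x axis) for each of the 32 interferon-stimulated genes (rows), for 5xFAD PBS minus WT PBS (left) and 5xFAD EV minus 5xFAD PBS (right), in hippocampus (purple) and PFC (orange); filled points passed at an adjusted p under 0.05. The left panel has 20 filled hippocampal and 8 filled PFC points, all above 0, and the right panel has none, with Rsad2 above 0 in both regions.

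Set against WT, 5xFAD EV samples passed for few of the genes. In the hippocampus Bst2 and Trim30a rose, 2 of 32, and none fell, where 1.93% of all genes rose, 0.173% fell and 2.1% changed. Bst2 differed by 1.27 (SE 0.25, adjusted p = 0.0291) and Trim30a by 1.09 (SE 0.16, adjusted p = 0.00763), in each case with all 5xFAD EV libraries above all WT libraries. Trim30a passed in each of the 9 fits without 1 library and Bst2 in 3 of them. All 32 fold changes were above 0, where 49.5% of all genes were below. The median over the set was 0.54, against 0.002 over all genes, and 11 genes did not overlap (10.7% of all genes). In PFC 0 of 31 passed, where 1.4% of all genes rose, 0.115% fell and 1.52% changed; 10 of the 31 had an unadjusted p under 0.05, against 1959 of the 13055, and voom called 1 of the 31 and 227 of all genes. The PFC median was 0.27, against 0.05 over all genes. There 26 of 31 values were above 0 (39.5% of all genes were below), and 7 genes did not overlap (13.6% of all genes). In the same comparison 13 of 14 microglial markers rose in the hippocampus and 11 of 14 in PFC. A missed threshold does not show that 5xFAD EV and WT levels are alike.

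Between regions, the median of the set was near 0 in WT mice and above 0 in 5xFAD PBS mice. Counts called in either direction were near or below the shares of all genes. Whether the regional difference changes with genotype is the test given above, which called 0 of the 32. In WT mice, 0 of the 32 genes were higher and 2 lower in the hippocampus than in PFC, where 8.72% of all genes were higher, 7.16% lower and 15.9% either. These were Herc6 (-1.37, SE 0.20, adjusted p = 0.000138) and Samd9l (-0.87, SE 0.15, adjusted p = 0.000864). Herc6 had 1.39, 1.08 and 0.505 FPKM in WT hippocampi and 3.66, 2.94 and 3.12 in WT PFC samples. An annotated gene on the same strand, Gm45193, covers 13.7% of the exon bases of Herc6, so its reads are uncertain between them. In 5xFAD PBS mice 8 genes were higher and 1 lower in the hippocampus, where 15.3% of all genes were higher, 9.78% lower and 25.1% either. The 8 were Bst2 (1.53), Ifi27 (1.40), Ifitm3 (1.09), Usp18 (1.03), Trim30a (0.68), Dhx58 (0.60), Ifi35 (0.57) and Parp9 (0.57), and the lower one was again Herc6 (-0.89). In 5xFAD EV mice Bst2 (0.97), Trim30a (0.60) and Dtx3l (0.37) were higher and Herc6 (-0.79) lower, where 8.6% of all genes were higher, 8.32% lower and 16.9% either. The 5xFAD PBS count was 3 without PFC replicate 1, 4 without hippocampal replicate 2 and 5 without hippocampal replicate 3. The 5xFAD EV count was 1 without PFC replicate 2 and 2 without PFC replicate 1 or 3 or hippocampal replicate 2 or 3. Over the set the median difference was -0.03 in WT, against 0.04 over all genes, and 0.50 in 5xFAD PBS, against 0.06. In 5xFAD PBS mice 13 of 13 choroid plexus markers (median 4.21), 4 of 8 meningeal fibroblast markers (1.12) and 5 of 14 microglial markers (0.46) were also higher in the hippocampus. In WT mice those medians were 0.41, 0.28 and 0.05. The part of these markers in the difference between regions was not tested. The labels do not say whether equal replicate numbers in both regions are the same mouse, and the fit treats all 18 libraries as separate.

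Of 20 interferon ligands listed, 3 have a row (Ifna6, Ifnab and Ifng), and the rest were not analysed here. None of the 3 reached the 0.5 FPKM rule, and their summed level was at most 0.25 FPKM in any library. The other genes of the pathway are given for 5xFAD PBS against WT, where 4.19% of all genes rose in the hippocampus and 1.82% in PFC. Of 5 receptor genes tested, Ifnar2 (0.66), a chain of the type I receptor, and Il10rb (0.76), a chain of the type III receptor, rose in 5xFAD PBS hippocampi and none passed in PFC. Of 10 kinases and factors, Irf8 and Irf5 rose in both regions. Irf8, a factor that microglia need, differed by 1.91 in the hippocampus and 1.42 in PFC, and Irf5 by 1.26 and 0.83 (PFC adjusted p = 0.064, short of the threshold, with the block).

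Inhibitors of the pathway and sensors upstream of interferon rose in part. Of the inhibitors, Ptpn6, a phosphatase of immune cells, rose in both regions (1.84 in the hippocampus, 1.44 in PFC), among 9 tested in the hippocampus and 8 in PFC. Samhd1, which breaks down nucleotides, rose in the hippocampus (0.61), and Trex1, which degrades cytosolic DNA, in PFC (0.44). Of 12 sensors and adaptors tested, 6 rose in the hippocampus and 1 in PFC. Tlr7, the receptor for single-stranded RNA, passed in both (1.36 and 0.90), and the hippocampal ones included Ifi204 (1.49), Ddx58, which encodes RIG-I (1.01), Sting1 (0.59) and Tlr9 (0.59). Of other interferon-stimulated genes listed, 20 of 39 tested rose in the hippocampus (4.19% of all genes) and 12 of 35 in PFC (1.82%), led by Lgals3bp (2.37 and 1.38), a secreted glycoprotein. No gene of these lists fell, and none passed between 5xFAD EV and 5xFAD PBS in either region, where limma called 0 of all genes.

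Promoter motif and response were set side by side as a description. Of 11 tested genes with an ISRE core, 8 rose in 5xFAD PBS hippocampi against WT (4.19% of all genes), with a median log2 fold change of 1.39 (0.02 over all genes). Of 14 with a window and no core, 7 rose, with a median of 0.99. The 10 genes without a window are in neither count. Of these, Usp18, Ifi27, Dhx58, Parp14 and Parp9 rose in that comparison, and Zbp1 and Rtp4 did not pass. Isg15, Ifit1, Ifit3, Bst2 and Trim30a, whose stretches are shown above, are among the 8, and Rsad2, Stat2 and Oas1a carry a core and did not pass there. No match in the window says nothing of elements further away, or of elements inside it that depart from the exact letters searched.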

How the data were processed

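Each library's FPKM values were used as the authors deposited them, for 18683 genes in 18 libraries. Per the submitters' processing notes, GRCm39 was the build, and fastp, HISAT2 and HTSeq are listed without version or order; the sources used here do not state the annotation, the gene lengths or whether strand was used. Because FPKM are scaled values, no count model was the main test, and limma 3.58.1 (R 4.3.3, eBayes with an intensity trend, two-sided) was run on log2(FPKM + 0.5). Within a region all 9 libraries were fitted, with genes at 0.5 FPKM or more in 3 or more of them (13055 in prefrontal cortex, 13305 in hippocampus). Between regions all 18 libraries were fitted (13574 genes). Benjamini-Hochberg adjustment covered all genes of a fit, and an adjusted p under 0.05 was a call. The gene set, the role groups, the pathway and marker lists and the motifs were chosen with earlier results of these data known, so a list gets counts and a median but no test.

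Values in every library are given for genes called in 5xFAD PBS against WT, in the region where they passed, and for the most abundant gene of each role. Whole reads could be recovered from the FPKM steps for 100% of genes, within a relative tolerance of 1e-06 and 0.01 reads, and went into voom as an alternative. Further alternatives were pseudocounts of 0.1 and 1, no filter, a filter at 1 FPKM, median-ratio scaling, a fit of the compared groups alone, the replicate number as a block, and each library left out. The limma procedure was tested on simulated data with independent noise for each gene and library. Such data hold no shifts shared by many genes of a library and no uneven choroid plexus, so that test does not cover these. In 5xFAD PBS against WT in prefrontal cortex, the deviations of same-numbered libraries correlated in every pair (0.213, 0.509 and 0.169, each above 0.1). This comes from the values and not from the labels, so block values stand beside those results. Only the libraries with number 2 were each other's best match in both directions there, so pairing is not established. In the other comparisons at least 1 pair was under 0.1. Reference sequence was GRCm38.p6, another build than that of the table, so it was used for names, promoter stretches and shared sequence only. Values of 1 gene of the pathway lists are not reported here.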

Additional observations from a re-analysis of the deposited data

How the results depend on the processing

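Which of the 32 interferon-stimulated genes passed depended on the processing, while the sign of every called gene was the same in each alternative run. For 5xFAD PBS against WT in PFC, 8 genes passed as reported, 3 with no filter, 4 with the replicate number as a block, 4 when the compared groups alone were fitted, and 2 to 8 without 1 library. In the hippocampus 20 passed as reported and 11 to 22 without 1 library, and the median log2 fold change of 1.18 was 1.44 with a pseudocount of 0.1 and 1.55 with voom. For 5xFAD EV against WT, voom called 1 gene in PFC (0 to 1 without 1 library), and in the hippocampus 1 gene passed with no filter, 1 with voom, and 1 to 3 without 1 library. Between regions, 3 to 11 genes passed in 5xFAD PBS mice and 1 to 5 in 5xFAD EV mice without 1 library. The cause of these shifts was not tested, beyond the smaller number of libraries in each such fit. The block left 16 genes called in the hippocampus, and between regions in 5xFAD EV mice it left 3, without Dtx3l (adjusted p = 0.0625, limma). Same-numbered libraries correlated above 0.1 in every pair for 5xFAD PBS against WT in PFC only, and the labels do not say that they are paired.

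Genes that did not pass changed sign without 1 library as follows. In 5xFAD PBS against WT in PFC, Ifi27 ranged from -0.2684 to 0.0989 and Rsad2 from -0.1836 to 0.3049. In 5xFAD EV against 5xFAD PBS in PFC, Ifi27 ranged from -0.0601 to 0.0548 (-0.0103 with median-ratio scaling), Ifit2 from -0.0537 to 0.0548 and Stat2 from -0.1953 to 0.2588. In the hippocampus Cmpk2 ranged from -0.2989 to 0.0356, Dtx3l from -0.1251 to 0.0661, Herc6 from -0.2233 to 0.0849, Ifit2 from -0.3172 to 0.0437 and Rsad2 from -0.0292 to 0.4987. Each of the 32 genes kept had at least 8 reads in every library, and counting error is largest for those with the fewest reads.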

Other observations

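Oas2 and Oas3, left out by the 0.5 FPKM rule, had at least 4 and 1 reads in every library. Oas3 carries an ISRE core in its promoter window and read at most 0.266 FPKM.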
